A study of Drosophila melanogaster with 6 samples.

Results

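The genes *ey*, *toy*, *eyg* and *toe* encode the Pax transcription factors of *Drosophila* eye fate, and they lie in pairs, *ey* and *toy* on chromosome 4 and *eyg* and *toe* on arm 3L. They were taken as a fixed list, chosen with earlier results of these data known, and all 4 were found among 17673 annotated genes on 6 chromosome arms. Chromosome folding was mapped by Hi-C, a method that ligates and sequences DNA fragments held in contact in the cross-linked nucleus, from eye and antennal imaginal discs of larvae in the third instar. Both groups carried the genotype yw;+;+ and were separated by hand, and each replicate pooled 125 discs, so that the mixture of cell types of a disc was measured as a whole. Each value was the start or end of a topologically associating domain (TAD), and TADs are stretches of DNA that contact themselves more often than the flanking sequence. Lists of 3 eye disc libraries, here eye 1, eye 2 and eye 3, and of 2 antennal disc libraries, antennal 2 and antennal 3, were compared; a first antennal replicate was not analysed here. The authors' pooled list of each tissue, labelled as holding all its replicates, was set beside them. The labels name no further treatment or allele. No contact, score or read number accompanied the positions, so the depth behind them is unknown.

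Pax proteins bind DNA through a paired domain, and *ey* and *toy* encode the fly counterparts of vertebrate Pax6. In the embryonic eye primordium Toy acts upstream of *ey*, and Ey in turn activates the retinal determination genes; forced expression of *ey* in other discs, the antennal disc among them, can yield ectopic eye tissue. *eyg* and *toe* encode Pax proteins with an incomplete paired domain, and *eyg* promotes growth of the eye disc in response to Notch signalling.

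The members of the chromosome 4 pair, 268.6 kb apart, lay in different TADs wherever that chromosome was called. *eyg* and *toe*, 29.9 kb apart, lay together in 1 TAD in 4 of 5 libraries. Chromosome 4 was empty of TADs in eye 1 and antennal 3, so every statement on *ey* and *toy* rests on eye 2 and eye 3, antennal 2 and the pooled lists. Those 3 libraries held 11, 10 and 9 TADs on chromosome 4, and the pooled eye and pooled antennal lists held 11 and 10. The pooled lists include these libraries and are no independent check of them; on chromosome 4 the pooled eye list gave the same TADs as eye 2. On 3L the 5 libraries held between 231 and 283. The calls of eye 1 on 3L ended at 23965000, and those of the other libraries between 27930000 and 27985000. Borders of 3L beyond the eye 1 calls could not be present in every library. Positions are those of dm6, all were multiples of 5 kb, and the bin was taken as 5 kb. Every start and end of a TAD counted as a border, the outermost edges of the calls included, and adjoining TADs shared 1 border. A gene's host TAD was the one holding the largest part of it.

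*ey* (CG1464, gene ID 43812) spans bases 697689 to 721173 of chromosome 4. Its host TAD ran from 700001 to 795000 in eye 2, from 695001 to 795000 in eye 3 and from 700001 to 795000 in antennal 2. Both pooled lists also gave 700001 to 795000. The right edge was therefore the same in all 5 of these lists, and the left edge moved by 1 bin in eye 3. The width was 97.5 ± 3.54 kb over the eye disc libraries (SD, n = 2) and 95 kb in antennal 2, with an exact permutation p = 1 (two-sided).

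That left edge fell at the left end of *ey*. A border at 700 kb, 2.31 kb inside the gene, was present in eye 2 and antennal 2, and 90.2% of the gene lay in the host TAD there. The border of eye 3 lay at 695 kb, 2.69 kb outside the gene, so that the whole gene was in the host. The inside and outside positions are 1 bin apart, which is the resolution of the calls. Of 80 protein-coding genes on chromosome 4, 15% had a border inside in at least 1 of the 3 libraries and 5% in every one, namely *lgs*, *gw*, *Cals* and *Mitf*.

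The host TAD of *ey* left out its left neighbour, *myo*, and held its right one. The border cut *ey* itself in eye 2 and antennal 2 and *myo* in eye 3. It lay between the genes in no library, and their gap is below the 5 kb bin. *myo*, which encodes a ligand of the TGF-beta family, lies 1.63 kb to the left of *ey* and shared its host TAD in 0 of 3 libraries. *bt*, which encodes the giant muscle protein projectin, lies 3.23 kb to the right and shared it in 3 of 3, as did *MED26*, a Mediator subunit gene, and *lncRNA:CR45200*. With *ey*, *bt* and *MED26* the host TAD held 3.16, 3 and 3.16 protein-coding genes per 100 kb in eye 2 and eye 3 and antennal 2. No other TAD of chromosome 4 was sparser in those 3 libraries, whose medians over TADs were 7.27, 7.75 and 6.90 per 100 kb. To the left lay a TAD of 40, 35 and 45 kb in the same 3 libraries.

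*toy* (CG11186, gene ID 43833) spans bases 989725 to 1007922 of chromosome 4. Its host TAD ran from 980001 to 1065000 in eye 2 and eye 3 and in the pooled eye list, and from 980001 to 1120000 in antennal 2 and the pooled antennal list. The gene lay wholly inside the host in each list. Its left edge was at 1 position in all 5. Its right edge differed between the eye disc libraries and antennal 2, giving a width of 85 kb in eye 2 and eye 3 and 140 kb in antennal 2. Only 1 antennal disc library had calls there, and the pooled antennal list includes it. The difference of -55 kb, eye disc minus antennal disc, had an exact permutation p = 0.667 (two-sided), the smallest that 2 against 1 libraries allow.

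**Figure D1:**
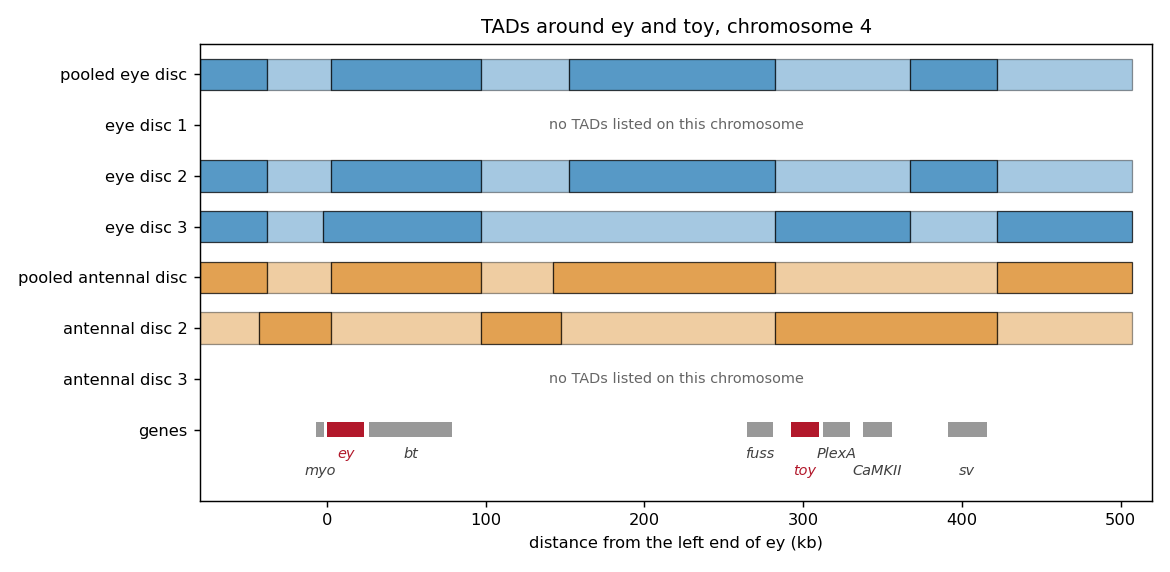
TADs on chromosome 4 in each list, drawn as boxes along the distance from the left end of *ey* (kb), with eye disc lists in blue above antennal disc lists in orange, alternating shades for neighbouring TADs, and genes in the bottom row. The left edge of the *ey* TAD falls at the left end of the gene, and the *toy* TAD ends before *sv* in the eye disc lists and beyond it in the antennal disc lists; eye disc 1 and antennal disc 3 list no TADs there.

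The edge that differed was a border at 1065 kb, which lies in *apolpp*, the lipophorin apolipoprotein gene, and at the last bases of *Zyx*, the zyxin gene. It was present in eye 2 and eye 3 and the pooled eye list, and the nearest border of antennal 2 and of the pooled antennal list was 55 kb away. To its right lie *Actbeta*, an activin ligand gene, and *sv*, itself a Pax gene, the counterpart of vertebrate Pax2 that acts in cone cells and bristles. *sv* starts 80.9 kb from the end of *toy*. In eye 2 and eye 3 *toy* and *sv* lay in neighbouring TADs, and in antennal 2 in 1 TAD.

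Such a split between these 3 libraries was common on chromosome 4. Any antennal 2 value outside the range of eye 2 and eye 3 counted as a split. Host TAD widths did not overlap between eye 2 and eye 3 and antennal 2 for 73.4% of the 64 protein-coding genes with a host in each, and 31.2% had a narrower host in both eye disc libraries, *toy* and its TAD neighbours among them. Of 13 border sites on chromosome 4, counting borders within 1 bin as 1 site, 23.1% were in eye 2 and eye 3 and not in antennal 2, against 9.97% of 1736 sites on the other 5 arms. The 3 such sites were at 135, 485 and 1065 kb. The site at 135 kb was the start of the first eye disc TAD on the chromosome, and the site at 485 kb was also in the pooled antennal list. At 1 host TAD in at least 1 of the 3 libraries, *toy* and *sv* were like 31% of the 203 protein-coding pairs of chromosome 4 with a gap within 25% of theirs.

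To the left of *toy*, the border at 980 kb lay between the gene and *fuss*, which encodes a protein of the Ski and Sno family and ends 11.2 kb from *toy*. *fuss* shared the host TAD of *toy* in 0 of 3 libraries. On the right, *PlexA*, a semaphorin receptor gene 1.97 kb away, shared it in 3 of 3. So did *Mpv17*, *CG11076*, *ATPsynbeta*, which encodes a subunit of ATP synthase, *CaMKII*, the calcium and calmodulin dependent kinase gene, and *Zyx*, between 20.8 and 49.4 kb away. *apolpp*, *Actbeta*, *sv* and *Cals*, a calsyntenin gene, shared it in antennal 2 and in neither eye disc library.

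Between *ey* and *toy* lay 268.6 kb with 19 genes, 10 of them protein-coding. Borders crossed this stretch at 795, 850 and 980 kb in eye 2, at 795 and 980 kb in eye 3, and at 795, 845 and 980 kb in antennal 2. The borders at 795 and 980 kb, the facing edges of the 2 host TADs, were thus at the same positions in every list, and the one near 845 kb was missing in eye 3. The mean number of borders was 2.5 ± 0.707 in the eye disc (SD, n = 2) and 3 in the antennal disc (n = 1), with an exact permutation p = 1 (two-sided). Of 453 protein-coding pairs on chromosome 4 with a gap within 25% of this one, 0% lay in 1 TAD in any of the 3 libraries. The widest TAD on chromosome 4 was 225 kb in eye 2 and eye 3 and 220 kb in antennal 2, less than the gap. No called TAD could therefore hold both *ey* and *toy*, and their separation was fixed by the TAD widths.

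*toe* (CG10704, gene ID 39418) spans bases 12422510 to 12432668 and *eyg* (CG10488, gene ID 39419) bases 12462537 to 12468021 of 3L. A TAD from 12420001 to 12495000 held both genes in eye 2 and eye 3, antennal 2 and both pooled lists. In antennal 3 it ran from 12420001 to 12490000. Eye 1 differed: a border at 12455 kb parted the genes, with *toe* in a TAD from 12420001 to 12455000 and *eyg* in one from 12455001 to 12540000. No other list had a border nearer than 35 kb to that point; the edges of the joint TAD, at 12420 and 12490 to 12495 kb, were the nearest. Of the 516 border sites on 3L, 40.1% were present in a single library. No border lay inside *toe* or *eyg* in any library; on 3L, 13.2% of 2739 protein-coding genes had one in at least 1 library and 1.53% in every one.

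**Figure D2:**
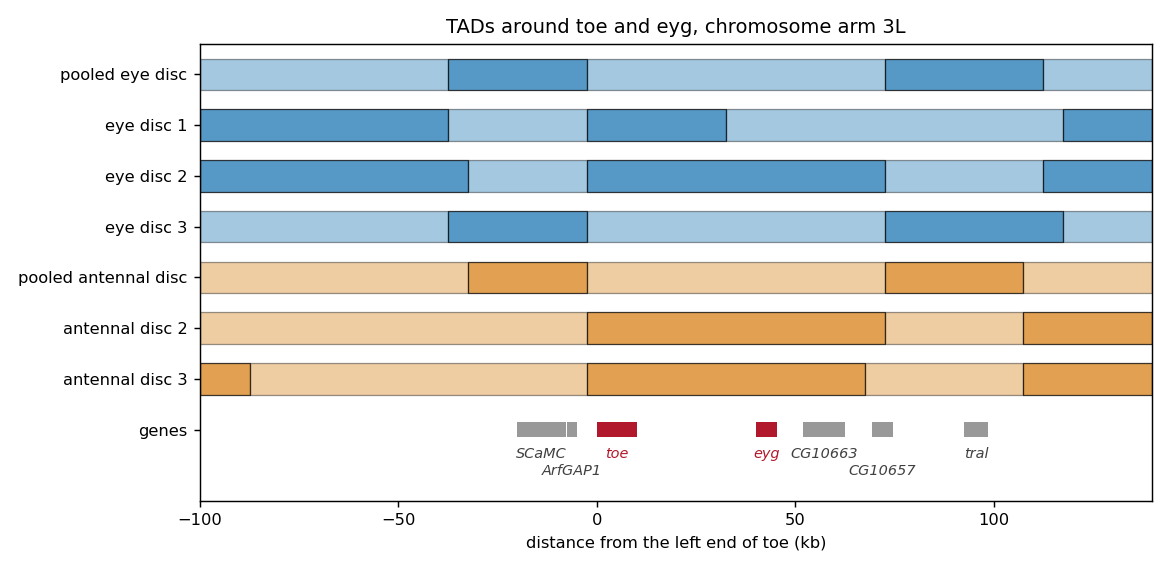
TADs on 3L in each list along the distance from the left end of *toe* (kb), with eye disc lists in blue above antennal disc lists in orange, alternating shades for neighbouring TADs, and selected genes in the bottom row. All lists share the edge just left of *toe*, and eye disc 1 alone has a border between *toe* and *eyg*.

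The genes are 29.9 kb apart with 0 annotated genes between them, a stretch wider than most. Of 2050 gaps between protein-coding genes on 3L 3.51% were wider, and the median gap was 0.476 kb. Pairs at such a gap often share a TAD: 51.1% of 5786 protein-coding pairs on 3L with a gap within 25% of theirs had 1 host TAD in at least 4 of 5 libraries. By library the share was 58.7%, 62.8% and 64.7% in eye 1, eye 2 and eye 3, and 60.6% and 56.9% in antennal 2 and antennal 3. The joint TAD of *eyg* and *toe* is therefore near the background for their spacing.

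**Figure D3:**
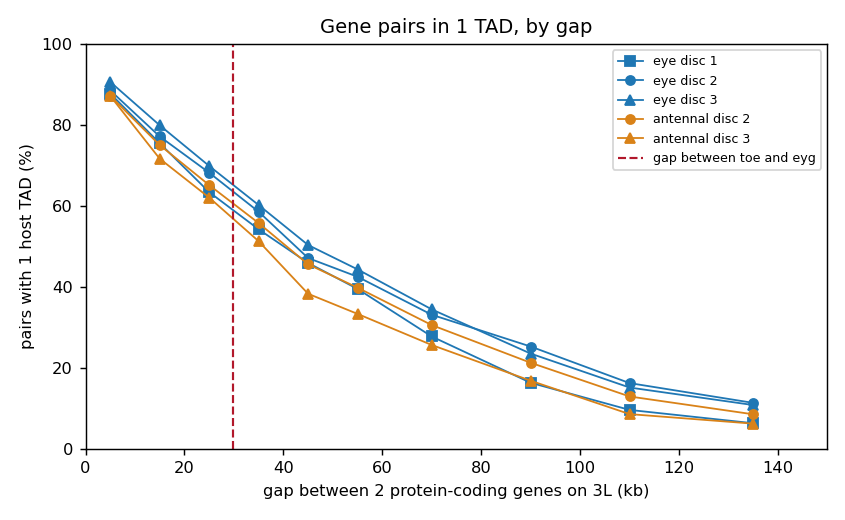
Percentage of protein-coding gene pairs on 3L that have 1 host TAD, plotted at the middle of each gap class (kb), with a line per library and a dashed line at the 29.9 kb gap between *toe* and *eyg*. In each library the share falls with the gap, and in the gap classes on either side of the dashed line, 20 to 30 and 30 to 40 kb, it lies between 51.3% and 69.9%.

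The left edge of that TAD lay at 12420 kb in all 5 libraries and both pooled lists, 2.51 kb from *toe*, between *toe* and *ArfGAP1*, which encodes a GTPase-activating protein for Arf. Over 3L, 3.88% of border sites were at 1 position in every one of the 5 libraries. Sites beyond the last TAD of eye 1 on the arm could not be among them. *ArfGAP1* lies 4.93 kb from *toe*, a gap below the 5 kb bin, and shared its host TAD in 0 of 5 libraries. On its far side the TADs varied more, with widths of 35, 30 and 35 kb in eye 1, eye 2 and eye 3 and of 160 and 85 kb in antennal 2 and antennal 3. A border at 12385 to 12390 kb, in the cation-chloride cotransporter gene *Ncc69*, was present in the 3 eye disc libraries and in neither antennal disc library, as were 1.94% of the 516 border sites on 3L. It was also in the pooled antennal list, at 12390 kb, so this difference between the discs was not found in the pooled calls.

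To the right of *eyg*, *CG32102*, 1.05 kb away, shared its host in 5 of 5 libraries, as did *CG10616*, *CG10663*, *CG33725* and *CG10660*. *CG10657*, which the right edge cuts at 12495 kb, shared it in 4 of 5. In eye 1 the TAD of *eyg* reached on past that edge to 12540 kb and took in further genes, among them *vih*, which encodes a ubiquitin-conjugating enzyme, *sti*, the citron kinase gene, and *Gcn5*, a histone acetyltransferase gene. It held 25.9 protein-coding genes per 100 kb, against 10.7, 10.7, 10.7 and 10 in the other 4 libraries in the order eye 2, eye 3, antennal 2 and antennal 3.

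*ey*, *toy* and *toe* stood at the left edge of their TADs, each parted from its left neighbour in every library with calls and joined to its right neighbour in most or all. Among neighbouring protein-coding genes with a host in every library, 9.52% of 63 pairs on chromosome 4 and 1.78% of 2692 pairs on 3L lay in different TADs in every library. *ey* and *myo*, *toy* and *fuss*, and *toe* and *ArfGAP1* were such pairs. *ey* and *bt*, *toy* and *PlexA*, and *eyg* and *CG32102* lay in 1 TAD in every library with calls, like 84.1% of the same pairs on chromosome 4 and 81.6% of those on 3L. Each of the 3 genes was the first or last protein-coding gene of its host in every library, which held for 21.9% of 64 genes on chromosome 4 and 4.6% of 2697 genes on 3L. *eyg* was not, since *toe* lay to its left in the same TAD in 4 of 5 libraries and genes lay to its right in all. These positions describe 4 listed genes, and no test was made of the list.

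The distance of a gene from the nearest border, taken as the mean over its 2 ends, did not set the discs apart for any of the 4 genes. *toe* lay 7.59 kb from a border in all 5 libraries. *ey* lay 11.7 and 14.4 kb from one in eye 2 and eye 3, and 11.7 kb in antennal 2. *toy* lay 18.8 kb from one in each of these 3 libraries, since the border at 980 kb is the nearest to both ends. The border at 1065 kb, absent from antennal 2, does not enter. The values of both discs overlapped for these genes, or were the same.

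*eyg* lay 10.3, 29.7 and 29.7 kb from a border in eye 1, eye 2 and eye 3, and 29.7 and 24.7 kb in antennal 2 and antennal 3. Eye 1 was the low one, at less than any antennal value, and the other eye disc libraries were at or above the antennal ones. The eye disc libraries averaged 23.2 ± 11.2 kb (SD, n = 3) and the antennal ones 27.2 ± 3.54 kb (SD, n = 2). Their difference of -3.98 kb had an exact permutation p = 1 (two-sided), and 3 against 2 libraries allow none below 0.2. Without eye 1 the difference was 2.5 kb.

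**Figure D4:**
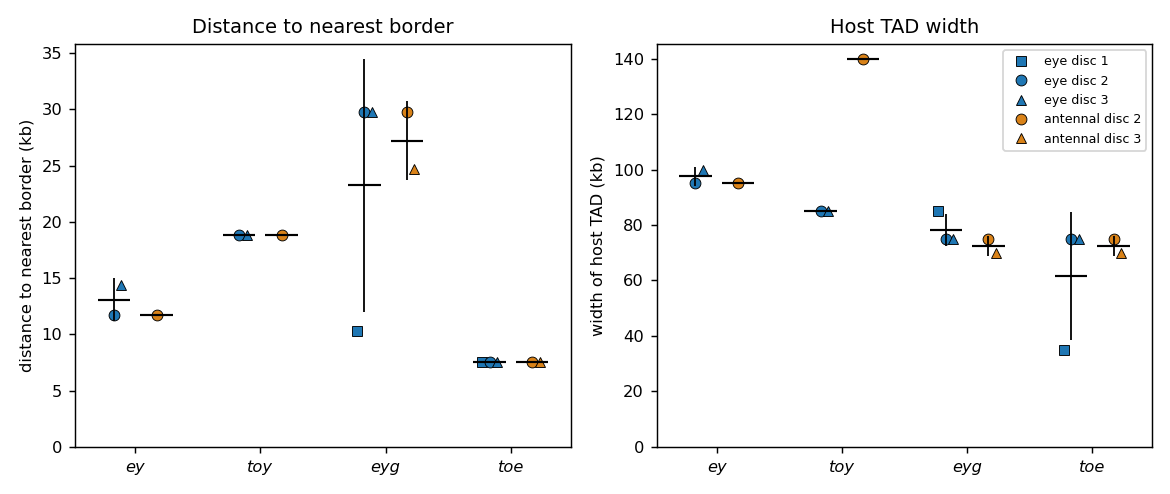
Distance to the nearest border, as the mean over the gene's ends (left, kb), and width of the host TAD (right, kb) for each gene, with a point per library, a horizontal bar at the mean and a vertical bar of 1 SD where a tissue has more than 1 library. *toe* sits at 7.59 kb in all libraries, eye disc 1 stands apart for *eyg* and *toe*, and the *toy* TAD is 85 kb wide in the eye disc against 140 kb in the antennal disc.

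In order of this mean over both gene ends, *toe* was nearest to a border, then *ey*, *toy* and *eyg*. In the 3 libraries with calls on chromosome 4 this order was the same and the genes' ranges did not overlap. Including all 5 libraries, *eyg* in eye 1 fell below every value of *ey* and *toy*. The mean also counts the gene end farther from a border, and the order of *toe* and *ey* depended on that end. By the nearer end alone, *ey* lay 2.31 kb from a border in eye 2 and antennal 2 and 2.69 kb in eye 3. *toe* lay 2.51 kb from one by that measure. Ranked by the mean among the protein-coding genes of its arm, *toe* was at the 14.9 to 20.8 percentile over the 5 libraries and *eyg* at the 25.6 to 61.8 percentile. *ey* was at the 21.2 to 30 percentile and *toy* at the 37.5 to 42.5 percentile over 3 libraries. Distances did not overlap between the discs for 14.1% of 2739 protein-coding genes on 3L and, in the 3 libraries, for 66.2% of 80 on chromosome 4; none of the 4 Pax genes was among them. On chromosome 4 any antennal 2 value outside the range of eye 2 and eye 3 counted, so this share does not measure a tissue difference. The calls there began at 135001 in eye 2 and eye 3 and at 220001 in antennal 2. Distances of genes outside the calls are to their edge.

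Host TAD widths of the 3L pair were likewise not told apart between the discs. For *eyg* they were 85, 75 and 75 kb in eye 1, eye 2 and eye 3, and 75 and 70 kb in antennal 2 and antennal 3. For *toe* they were 35, 75 and 75 kb in the eye disc libraries, and 75 and 70 kb in the antennal disc libraries. The *toe* TAD averaged 61.7 ± 23.1 kb over the eye disc libraries (SD, n = 3) and 72.5 ± 3.54 kb over the antennal ones (SD, n = 2), with an exact permutation p = 1 (two-sided). The difference of -10.8 kb was 2.5 kb without eye 1. For *eyg* the difference was 5.83 kb, with an exact permutation p = 0.6 (two-sided). The widths of both genes overlapped between the discs, whereas those of 22.7% of 2697 protein-coding genes on 3L did not.

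The other 6 Pax genes of the fly are *prd*, *gsb*, *gsb-n*, *Poxm*, *Poxn* and *sv*. As in *toy*, *eyg* and *toe*, no border lay inside any of them in a library with calls. For *gsb* and *gsb-n* only the antennal disc libraries had calls at the genes. A border lay inside in at least 1 library for 15% of 80 protein-coding genes on chromosome 4 and 13.2% of 2739 on 3L. *prd* was 24.8 ± 18.0 kb from a border over the eye disc libraries (SD, n = 3) and 14.4 kb in both antennal disc libraries. *Poxm* was 20.1 ± 2.19 kb from a border over the eye disc libraries (SD, n = 3) and 21.4 kb in both antennal disc libraries, and *Poxn* 12.0 ± 6.69 kb over the eye disc libraries (SD, n = 3) against 7.10 ± 1.73 kb in the antennal libraries (SD, n = 2). *sv* was 15.2 kb from a border in eye 2 and eye 3 and 18.9 kb in antennal 2. *gsb* and *gsb-n*, the segment polarity pair on 2R, lie 9.63 kb apart and shared a TAD in both antennal disc libraries. Of 2723 protein-coding pairs on 2R with a gap within 25% of theirs, 82.6% did so in antennal 2 and 81.6% in antennal 3. In the 3 eye disc libraries *gsb* and *gsb-n* lay beyond the last TAD of the arm, so no host could be given and the comparison with *eyg* and *toe* ends there. The distances of 81.6 ± 24.7 kb for *gsb* and 64.7 ± 24.7 kb for *gsb-n* (SD, n = 3) in the eye disc libraries are to the edge of the calls, against 14.2 ± 3.54 and 31.1 ± 3.54 kb (SD, n = 2) in the antennal ones. Distances did not overlap between the discs for *sv*, *gsb* and *gsb-n*, 3 of these 6 genes, beside 12.7% of 13831 protein-coding genes on the 5 arms other than chromosome 4 and the 66.2% on chromosome 4. Among 7 other retinal determination genes, *so*, *eya*, *dac*, *Optix*, *tsh*, *tio* and *hth*, a border lay inside 3 genes in at least 1 library, namely *eya* in 2 of 5, *hth* in 3 of 5 and *tio* in 1 of 5. On 3L this held for 13.2% of 2739 protein-coding genes. The 7 genes lie on other arms, where no such share was taken, and *hth* is 132 kb long. The discs did not overlap in distance for 2 of the 7, beside the 12.7% of protein-coding genes on the 5 arms other than chromosome 4. *Optix* lay 23.5 ± 2.89 kb from a border over the eye disc libraries (SD, n = 3) and 30.6 ± 3.54 kb over the antennal ones (SD, n = 2), and *tio* 64.2 ± 44.8 kb against 5.37 ± 2.98 kb. In both pooled lists *Optix* lay 21.9 kb from a border, so its difference was not found in the pooled calls. *tio* lay 92.5 kb from one in the pooled eye list and 3.26 kb in the pooled antennal list.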

How the data were processed

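The authors deposited lists of TAD start and end positions, 1 per library and 1 per tissue from all replicates. The submitters' processing notes name Bowtie2 2.3.4.2 and the build dm6; not given in the sources used here are the program that called TADs and its bin size. Each TAD start and end counted as a border, and where a gap of up to 1 bin separated neighbouring TADs its midpoint was used. Gene positions, without strand, were those of RefSeq's Release 6 annotation, which dm6 matches. Tissues were compared by exact permutation over libraries, and a gene's values were set beside those of all protein-coding genes of its arm. The replicates were separate pools of discs. The genes named are the listed ones, their nearest neighbours, genes that share a host TAD, genes at its edges, the other Pax genes and retinal determination genes; *Optix*, *tio*, *tral*, *SCaMC*, *vih*, *sti*, *Gcn5* and the 4 genes of chromosome 4 with a border inside were chosen after their values were seen. Members and lists were chosen with earlier results of these data known. The functions for borders, hosts and distances were tested on simulated data. Computations used Python 3.11.15 with pandas 2.3.3 and numpy 2.4.6, and plots matplotlib 3.10.9.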

Additional observations from a re-analysis of the deposited data

How the results depend on the processing

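Of 113 values under alternative settings for 17 results, 88 kept the direction of a difference, stayed within 1.5 times for a percentage, or stayed at 0. Another 4 turned direction, and 16 differences between the discs became 0. Values that stayed at 0 have no direction to keep. They include all 10 for the border distance of *toe* and all 5 for that of *toy*. All 6 for a border inside *toy*, all 9 for *eyg* and 8 of 9 for *toe* are also among them. So are all 4 for *ey* and *toy* in 1 TAD, a count that the TAD widths fixed at 0. The pooled lists gave 0 for the border distances and host TAD widths of *ey* and *eyg*, the width of *toe* and the borders between the members of each pair. Without eye 3, the differences for *ey* and the borders between *ey* and *toy* were 0. With 1 library left out these ranged from 0 to 2.69 kb for the *ey* distance, 0 to 5 kb for its width, -1 to 0 for borders between *ey* and *toy*, and 0 to 0.5 for borders between *eyg* and *toe*. The difference for the border distance of *eyg*, eye disc minus antennal disc, was -3.98 kb, ranged from -7.22 to 2.5 kb with 1 library left out, and was 2.5 kb both without eye 1 and with the replicate number as a block over replicates 2 and 3. The difference for the host TAD width of *toe* was -10.8 kb, ranged from -17.5 to 2.5 kb with 1 library left out, and was 2.5 kb under the same 2 settings; both leave out eye 1, which holds the border between *toe* and *eyg*. Replicate numbers share no stated source. Deviations of same-numbered libraries correlated at r = 0.198 for number 2 and -0.147 for number 3 across 13831 genes. The deviations of 2 antennal libraries mirror each other, so eye 2 with antennal 3 gave -0.198 and eye 3 with antennal 2 gave 0.147. These values therefore cannot show whether same-numbered libraries belong together. The block also gave a difference of 0 in the borders between *eyg* and *toe*, against 0.333, and changed no other direction. A border lay inside *toe* in 0% of libraries, and in 100% when borders up to 1 bin outside counted, since the border at 12420 kb lies within 1 bin. The share of protein-coding genes whose distances did not overlap between the discs was 12.7% on the 5 arms other than 4, and 17.4% to 32.8% with 1 library left out, where fewer libraries must concur. In eye 2, eye 3 and antennal 2 alone, a set chosen after seeing the data, *eyg* and *toe* shared a TAD in 100% of libraries, against 80% of all 5, and the differences for the distance of *eyg*, both widths and the borders between them were 0. The transcription start was not used as a position, since the gene table gives no strand. No paired fit could be made for *ey* and *toy*, whose calls share 1 replicate number. Depth is unknown and its part in lost or shifted borders was not tested; 2 against 1 libraries on chromosome 4 can pass no threshold.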
